A study of Mus musculus with 4 samples.

Results

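The regions described here are weak DNase I sites that lay close together on the mouse autosomes and were called only in CD8+ T cells without Tcf1 and Lef1. A region was called DKO-only (double knockout) when both DKO peak lists and neither wild-type (WT) list had a peak in it. Of 38110 autosomal regions, made by merging the peaks of 4 libraries wherever they overlapped, 5429 were DKO-only, or 14.2%. A fixed grid of 100 kb windows was laid over the chromosomes, and 353 windows held at least 3 DKO-only regions. These windows held 1202 of the 5429 (22.1%). The 1016 of them with a fold enrichment under 8 in at least 1 DKO library are the clustered weaker DKO-only regions, 18.7% of the autosomal DKO-only regions and 2.67% of all autosomal regions. The other 186, with folds of at least 8 in both DKO libraries, are called strong here. The regions were chosen by their calls and folds in these libraries, so both are given as a description with no test.

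All mice carried hCD2-Cre, a Cre recombinase driven by the human CD2 promoter, and the Rosa26-lsl-GFP reporter, which turns cells green once Cre has acted. WT mice had wild-type Tcf1 and Lef1, and DKO mice were floxed for both genes and labelled Tcf1-/-Lef1-/-. GFP+ TCRbeta+ CD62Lhi CD44lo-med CD8+ T cells were sorted from spleen, cultured with IL-7 and IL-15 during 72 h, lysed and cut with DNase I. There were 2 libraries per genotype. The labels give no age or sex, and do not say whether the libraries came from separate or pooled animals, so the spread between them may be technical. The markers of CD8+ T cells were not looked up, since no gene map of the build mm9 was used here.

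DNase I cuts DNA where nucleosomes are displaced, so clusters of cuts mark promoters, enhancers and insulators. Tcf1 and Lef1 are HMG-box proteins that bind DNA in T cells and can recruit co-activators such as beta-catenin or co-repressors of the TLE family. Tcf1 is required for T cell development and for keeping naive and memory CD8+ T cells, and the title of the series links it to CTCF, a protein that anchors chromatin loops. Neighbouring accessible sites in a stretch of chromosome often serve the same gene or chromatin domain, which is why closely spaced sites are described together.

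The lists held 17521 and 11073 peaks for WT replicates 1 and 2, and 34788 and 21353 peaks for DKO replicates 1 and 2. No read totals are in the lists. The lowest local background, a sign of depth, was 1.5004 and 1.47 fragments for WT and 1.23 and 1.15 for DKO. The DKO libraries had 55 and 57 peaks on chromosome Y and the WT libraries had 0, so the genotypes also differ in a feature that the labels do not explain. Its part in the autosomal calls cannot be told apart from genotype.

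The clustered weaker regions stood above background in both DKO libraries and were low in both lists. Fold enrichment is the peak caller's ratio of pileup to local background, with 1 added to each. In DKO replicate 1 the fold of these regions ran from 4.01 to 21.3 with a median of 7.26. In DKO replicate 2 it ran from 4.002 to 10.2 with a median of 5.65. Neither WT list had a peak in any of them, by the rule. The regions thus sat at a median percentile of 38.5 among the autosomal peaks of DKO replicate 1 and 26.5 among those of DKO replicate 2. With every list held to its 11073 peaks of highest −log10 p, the length of the shortest list, only 6 clustered weaker regions in 4 windows were left of 1016 in 353. Leaving out 1 library also changed the count, because the class is then defined by 3 lists and not 4. It gave 3121 regions without WT replicate 1, 1353 without WT replicate 2, 1667 without DKO replicate 1 and 7077 without DKO replicate 2.

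DKO replicate 2 set the lower value in most cases. Its fold was the lower in 853 regions and that of DKO replicate 1 in 163. For 376 regions (37.0%) the fold in DKO replicate 1 was at least 8, but in DKO replicate 2 this held for 16 (1.57%). The libraries were over 2-fold apart in 57 regions, and in all 57 replicate 1 was the higher. At the regions called in all 4 libraries the fold was also higher in DKO replicate 1 for 91.1%, so the order of the DKO libraries was not limited to the clustered sites.

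**Figure D1:**
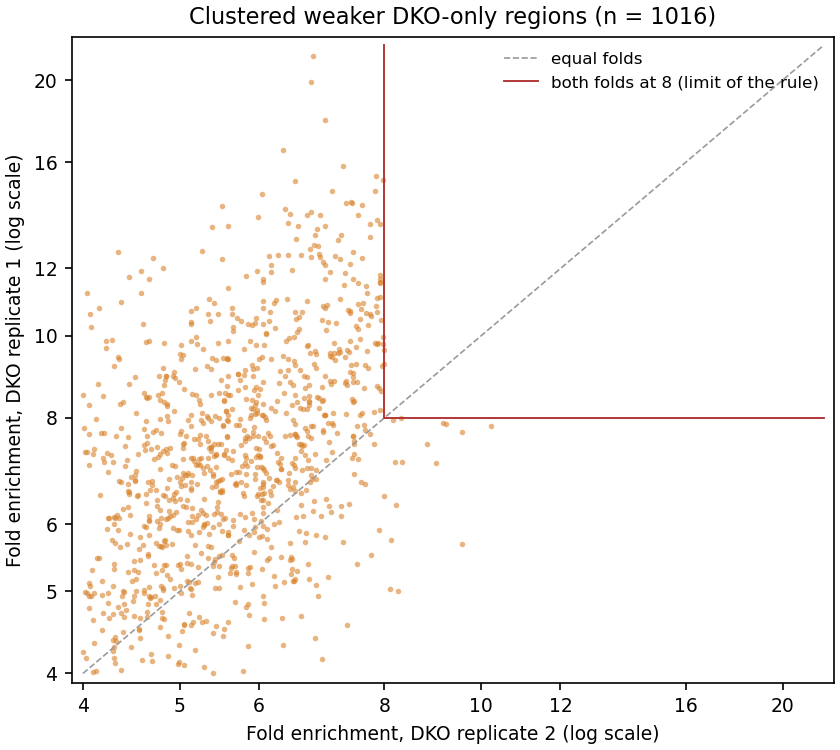
Fold enrichment of each of the 1016 clustered weaker DKO-only regions in DKO replicate 1 (vertical) and DKO replicate 2 (horizontal), both on log scales. The dashed line marks equal folds and the solid line the limit of 8; 853 points lie above the dashed line, and the upper right corner, which the rule leaves out, is empty.

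The lower fold of the pair was under 5 in 316 regions, 5 to 6 in 344, 6 to 7 in 222 and 7 to 8 in 134. The highest fold in DKO replicate 1 was at 158478897 to 158479002 on chromosome 2 (mm9), a site of 106 bp which reached 21.3 in that library and 6.80 in DKO replicate 2. A site of 160 bp on chromosome 5, 121055808 to 121055967, had 19.9 and 6.76, and one of 217 bp on chromosome 10, 98560062 to 98560278, had 17.9 and 6.99. In the same order these sites lay at percentiles 98.6, 97.7 and 95.4 of the autosomal list of DKO replicate 1. In DKO replicate 2 they lay near the middle of the list, at 43.8, 43.5 and 47.0. At the lower end, chromosome 5, 31232574 to 31232709, had 8.52 and 4.002, and chromosome 7, 38892987 to 38893152, had 4.24 and 4.002. The latter window, 38800001 to 38900000, also held a site near the upper limit, 38846190 to 38846309, with 10.4 and 7.94.

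The limit of 8 separated sites with nearly equal values. Just inside it, the site at 101664643 to 101665060 of chromosome 3 had 9.26 in DKO replicate 1 and 7.993 in replicate 2. Chromosome 5, 24256614 to 24256776, had 9.62 and 7.992, and chromosome 14, 32254053 to 32254177, had 7.989 and 8.31. Just outside it, 82800342 to 82800435 of chromosome 1 had 9.56 and 8.03. The next strong sites, 60648795 to 60648944 of chromosome 2 and 53403909 to 53404035 of chromosome 11, had 9.86 and 8.03 and then 8.03 and 9.52. These sites were picked as the nearest to the limit, so their close values cannot show whether it is a boundary in the data.

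Pileups show how few fragments carried these calls. Solved from the deposited fold and p, the pileup at the summit had a median of 22 fragments in DKO replicate 1 and 15 in DKO replicate 2. The smallest pileup in any autosomal peak was 10 in the list of WT replicate 1, 9 in that of WT replicate 2 and 8 in both DKO lists. In 982 of the 1016 regions (96.7%) both DKO pileups were at least 10. The −log10 q was at least 5 in both DKO lists for 719 regions (70.8%) and at least 10 for 163 (16.04%). Absence from a WT list means that a site did not pass its listing limits, so lower signal in WT was not measured below those limits.

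Both DKO libraries placed these weak peaks at nearly the same base. The distance between the summits of replicates 1 and 2, which the rule did not use, had a median of 16 bp, with 79.3% within 50 bp and 2.85% over 150 bp apart. It was 14 bp at the regions called in all 4 libraries, of which 79.9% were within 50 bp. Weaker DKO-only regions in other windows had 18 bp and 80.0%. Strong regions of the same windows were closer, at 9 bp and 98.4%. Peaks within a merged region overlap by construction, which bounds these distances, and the differences were not tested.

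The sites had a median width of 187.5 bp, with quartiles of 144 and 244 bp. Weaker DKO-only regions of other windows had a median of 183 bp. Strong ones had 174.5 bp in the same windows and 149 bp elsewhere, so narrow sites were not particular to the members. Regions called in all 4 libraries had a median of 320 bp, but they merge peaks of 4 lists and not of 2, which can widen them. A single member was far wider than the rest, at 1670 bp. This site of chromosome 1, 167790612 to 167792281, had folds of 8.77 and 7.07, from pileups of 203 and 131 fragments. Its local background of 22.3 and 17.7 fragments was the highest of all members, against medians of 2.15 and 1.74.

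Within a window the sites were usually kilobases apart. The 663 gaps between neighbouring members of a window had a median of 13990 bp, and 252 were over 20 kb. Of these gaps 66 (9.95%) were under 1 kb and joined 129 members into 63 short runs. The longest runs had 3 members, on chromosome 7 from 29166104 to 29168290, and on chromosome 5 from 93696513 to 93697591 and from 141072485 to 141073511. Joining sites under 1 kb apart before counting left 877 sites in 310 windows, so most windows did not rest on 1 split site.

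Of the 353 windows, 251 held 3 DKO-only regions, 76 held 4, 16 held 5, 6 held 6, 3 held 7 and 1 held 8. In 205 windows every DKO-only region was weaker, and 148 windows also held at least 1 strong one. By number of weaker regions, 190 windows had 3, 82 had 2, 48 had 4, 20 had 1, 8 had 5 and 5 had 6. Median folds were close whatever the number of DKO-only regions in the window. The medians in DKO replicate 1 were 7.26, 7.43 and 7.08 for members of windows with 3, with 4, and with 5 or more. In DKO replicate 2 they were 5.68, 5.65 and 5.53. Windows mostly stood alone, with 51 of them in 25 adjoining groups. The longest group spanned 3 windows on chromosome 11, 57900001 to 58200000, with 6 members. Among the pairs, chromosome 9 at 114300001 to 114500000 and chromosome 13 at 23500001 to 23700000 had 8 members each.

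The 5 windows with 6 weaker sites lay on chromosomes 5, 1, 5, 2 and 5. In the first, chromosome 5 from 114200001 to 114300000, folds in DKO replicates 1 and 2 were 8.95 and 4.85 at 114221874 to 114222058, and 7.46 and 7.46 at 114265900 to 114266001. They were 6.86 and 5.05 at 114274368 to 114274582, and 4.65 and 4.25 at 114275714 to 114275855. The last members were 114282587 to 114282896, with 4.65 and 4.80, and 114292349 to 114292766, with 6.68 and 4.44. The sites follow each other over 70.9 kb and are joined by 2 strong ones, at 114223783 to 114223883 with 13.7 and 10.4, and at 114294881 to 114294993 with 14.2 and 10.1. WT replicate 1 had 4 calls in the window, 3 of them at sites also called in both DKO libraries, and WT replicate 2 had 0.

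On chromosome 1, 167700001 to 167800000 held 4 members in its left part and 2 at its right end. The left members had folds of 8.47 and 6.86 at 167705816 to 167705929, and of 9.85 and 5.88 at 167710678 to 167710872. They had 11.04 and 6.40 at 167718709 to 167718857, and 6.13 and 5.14 at 167733310 to 167733498. At the right end the broad site of 1670 bp followed a member at 167789962 to 167790334, with 4.40 and 4.56, and a strong site at 167788629 to 167789109, with 14.9 and 10.8. WT replicates 1 and 2 had 1 and 2 calls among the 17 regions of this window, and DKO replicates 1 and 2 had 15 and 11.

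The window on chromosome 5 from 141000001 to 141100000 held 3 of its 6 members within 1027 bp. Their folds were 4.84 and 4.24, then 9.33 and 6.502, then 7.81 and 5.92 in DKO replicates 1 and 2. The member most unequal between the libraries was 141012671 to 141012799, with 15.2 and 6.52, next to a strong site at 141016148 to 141016305, with 14.2 and 8.31. On chromosome 2, 28300001 to 28400000 held 8 regions, of which 6 were members and none was strong. A pair at 28321773 to 28321899 and 28323475 to 28323588 had 10.7 and 7.37, and 8.39 and 5.53. The other 4 lay in the right part of the window, with folds from 6.003 to 8.91 in replicate 1 and from 4.95 to 6.76 in replicate 2. WT replicate 1 had 1 call in this window and WT replicate 2 had 0.

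Chromosome 5 from 123100001 to 123200000 differed from these in holding 2 regions called in all 4 libraries. One, 123103284 to 123103715, had folds of 7.19 and 5.11 in WT and 11.5 and 7.14 in DKO. It lay beside a member at 123102618 to 123102828, with 5.47 and 4.15 in DKO. The weakest member, 123182026 to 123182207, had 7.79 and 4.01. So weak DKO-only sites lay next to sites open in every library as well as in stretches with few WT calls.

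The remaining windows of the first 10 had 5 members each. They were chromosome 4 from 135600001 to 135700000, chromosome 13 from 23600001 to 23700000, chromosome 19 from 5400001 to 5500000, chromosome 15 from 59400001 to 59500000 and chromosome 14 from 32200001 to 32300000. Chromosome 13 was the most crowded, with 24 regions, 8 of them called in all 4 libraries. There WT replicates 1 and 2 had 13 and 11 calls, and DKO replicates 1 and 2 had 23 and 17. Chromosome 15 was at the other extreme, with 0 calls in either WT library and 10 and 6 in DKO. Its members had folds of 5.05 and 4.66, 7.44 and 6.66, 5.04 and 5.42, 6.91 and 4.24, and 5.73 and 4.82, and its strong site, 59477981 to 59478105, had 10.6 and 8.77. Over the 10 windows, the DKO lists had calls at 129 and 103 of 136 regions for replicates 1 and 2, and the WT lists at 36 and 23. On all autosomes the DKO lists held 34036 and 20934 peaks and the WT lists 17216 and 10883, over 38110 merged regions. The 10 windows were picked for their DKO-only sites, so the order of these counts is set in part by the choice.

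**Figure D2:**
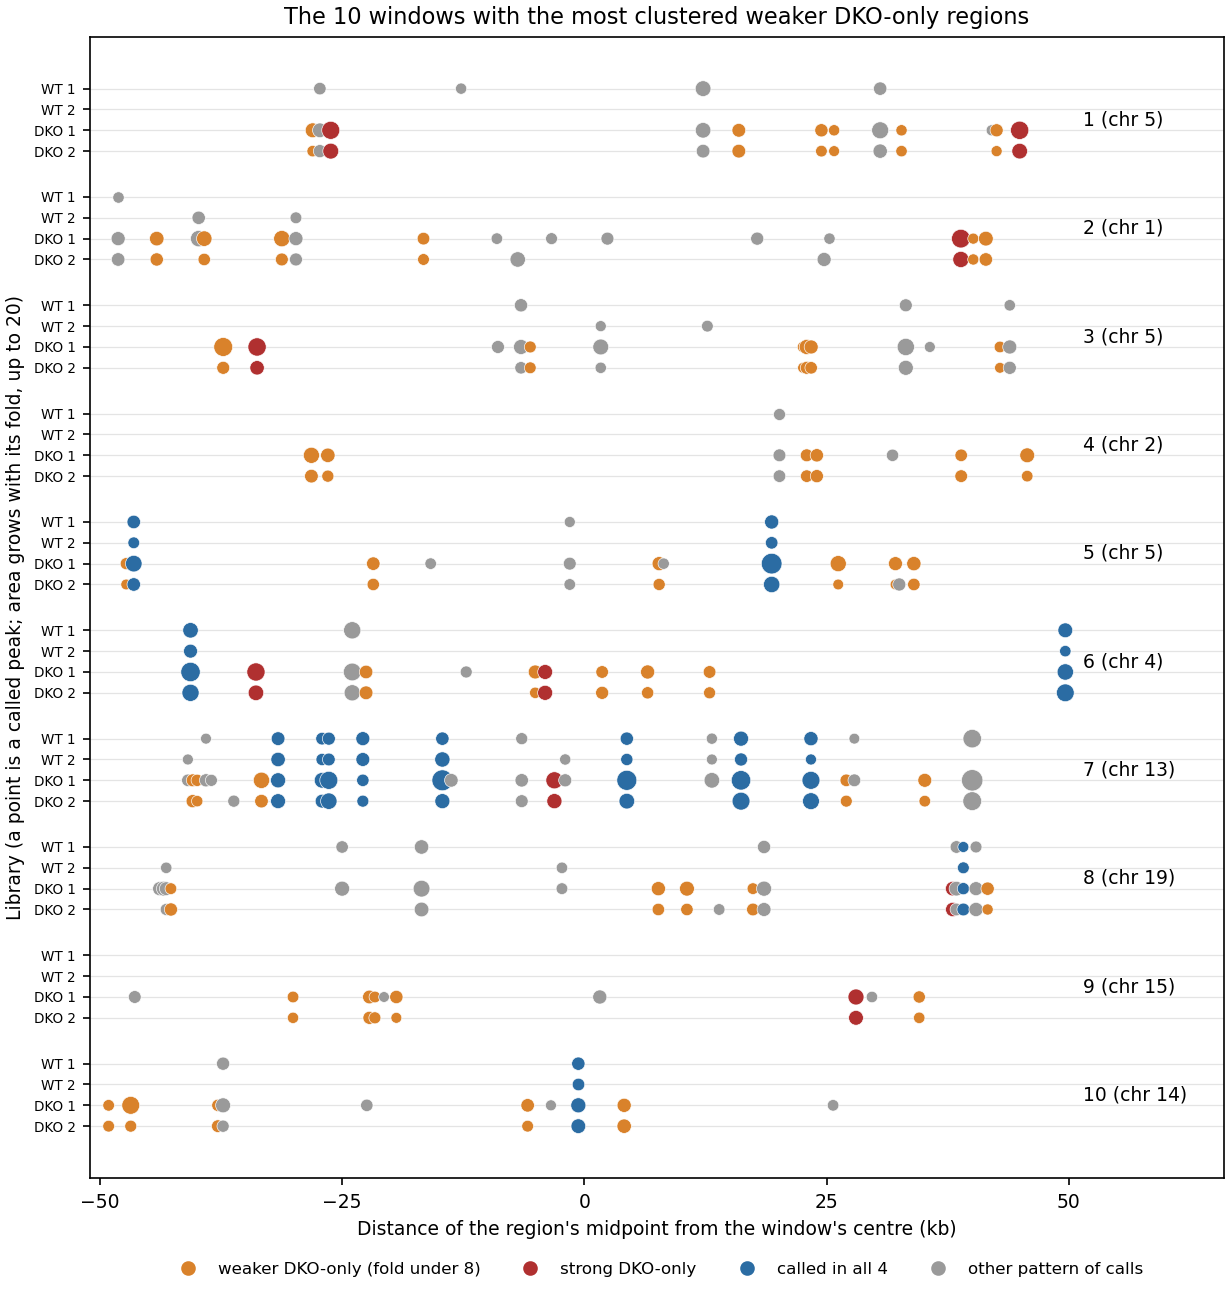
Called peaks in each library across the 10 windows with the most clustered weaker DKO-only regions, by distance of the region from the centre of the window (kb). A point is a call, its area grows with the fold, and colour gives the class of the region; window 9, on chromosome 15, has no WT call, while window 7, on chromosome 13, has 8 regions called in every library.

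Most windows also held sites open in WT. No WT call was found in 34 of 353 windows (9.63%), and they held 87 of the 1016 members. Among the other autosomal windows that held a region, 22.6% had no WT call. WT replicate 1 had no call in 39 windows and WT replicate 2 in 92. In 221 windows (62.6%) at least 1 region was called in all 4 libraries, against 49.0% of the other windows. In 8 windows every region was DKO-only: 7 of them held 3 regions, and 1, on chromosome 9 from 48500001 to 48600000, held 4. The windows were crowded, with a median of 9 regions against 3 in the other 10014 windows that held any. The rule asks for at least 3 DKO-only regions in a window, and its part in the crowding was not tested. Among windows of 7 to 11 regions, 64.8% of 193 with members and 84.6% of 1193 others held a region called in all 4 libraries. With no WT call there were 3.11% and 0.42% of these windows. At such numbers of regions both orders were thus the reverse of those over all windows. At least 3 regions per window are DKO-only by the rule, so fewer places were left for other classes.

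Outside the DKO-only class, the make-up of the windows was close to that of the rest of the autosomes. Of their 2004 other regions, 1125 (56.1%) had a WT call, against 17909 of 30677 elsewhere (58.4%). Regions called in all 4 libraries made up 21.9% and 24.5%. The windows held 5.87 and 5.62% of the calls outside the DKO-only class in WT replicates 1 and 2, and 6.28 and 6.21% of those in DKO replicates 1 and 2. The windows were chosen for sites called in DKO and not in WT, and this choice favours DKO calls in them. The order of these shares is therefore no result. For the same reason an exact two-sided permutation test of them (p = 0.33, n = 2 each) cannot decide anything.

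The folds of sites called in all 4 libraries were not used by the rule. There were 438 inside the windows and 7511 on the rest of the autosomes. Inside, WT replicates 1 and 2 had a median fold of 7.09 and 6.31, and the DKO replicates had 12.6 and 8.77. Because folds ran higher in the DKO lists, each fold was also given as its percentile in the autosomal list of its own library. The WT libraries had a median percentile of 60.3 and 53.1 and the DKO libraries 78.4 and 67.1, a difference of 16.04 points between means of 56.7 ± 5.1 and 72.8 ± 8.0 (SD, n = 2 each; exact two-sided permutation p = 0.33, the smallest possible). A percentile depends on the length of its list, since the longer DKO lists hold more weak peaks below a shared site. On the rest of the autosomes the median percentiles were higher in every library, at 67.5, 59.6, 81.5 and 74.9 in the same order, with a difference of 14.7 points between genotypes. With every list held to 11073 peaks, the 286 sites then shared inside the windows had median percentiles of 50.99 and 63.4 in WT and 53.9 and 56.8 in DKO. The difference changed sign, to -1.83 points (exact two-sided permutation p = 1.0), with both DKO values between the WT values. The 16.04 points thus did not hold at equal list length. The set of sites changed as well, from 438 to 286, and its part was not tested. The median folds of these 286 sites were 7.67 and 6.85 in WT and 14.1 and 10.1 in DKO. Folds of different lists are not on a common scale, so a genotype difference in signal was not tested by them.

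Within each library, shared sites inside the windows had lower percentiles than those elsewhere, by 6.81 ± 0.53 points in WT and 5.46 ± 3.29 points in DKO (SD, n = 2 each). The genotypes overlapped in this drop (exact two-sided permutation p = 1.0). Without DKO replicate 1 the difference in the drop between genotypes, DKO minus WT, changed sign from 1.35 to -0.92 points, and with lists of equal length it was -0.53. The percentiles inside were lower in all 4 libraries at equal length too, where those of the rest of the autosomes were 64.3 and 69.7 in WT and 62.7 and 68.7 in DKO. With 2 libraries per genotype this does not show that the drops are alike.

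**Figure D3:**
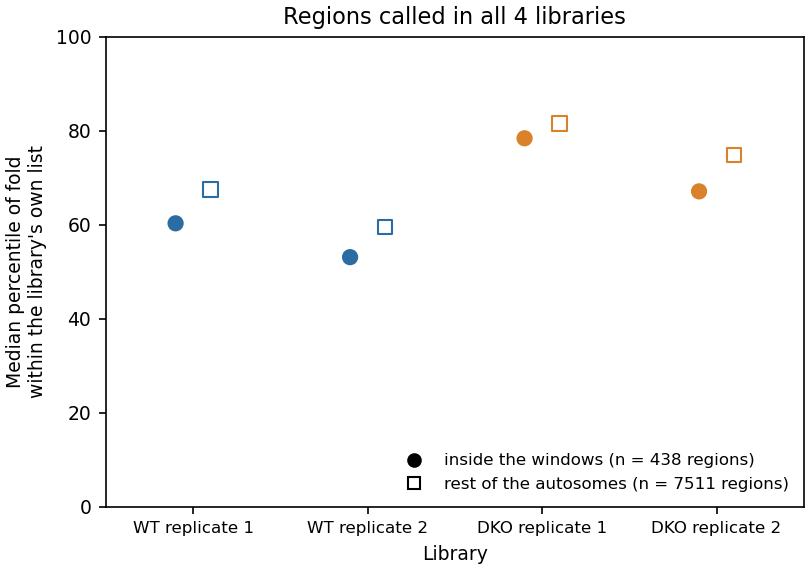
Median percentile of fold within each library's own autosomal list, for regions called in all 4 libraries, inside the windows (filled circles, 438 regions) and on the rest of the autosomes (open squares, 7511 regions). The circle lies below the square in each of the 4 libraries; heights of different libraries depend on the length of their lists.

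Members lay near sites that WT cells also had open. The midpoint of the nearest region with a WT call was at a median of 8.46 kb, with quartiles at 3.08 and 19.3 kb. Within 1 kb lay 121 members (11.9%), within 10 kb 552 (54.3%), and over 100 kb away 26 (2.56%). For the 3516 weaker DKO-only regions of other windows the median was 12.8 kb, with 12.7% within 1 kb, 44.0% within 10 kb and 7.196% over 100 kb away. At short range the shares were nearly equal, and the distributions parted beyond 2 kb. The windows held more regions of every kind, and the part of that density in the distances was not tested.

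**Figure D4:**
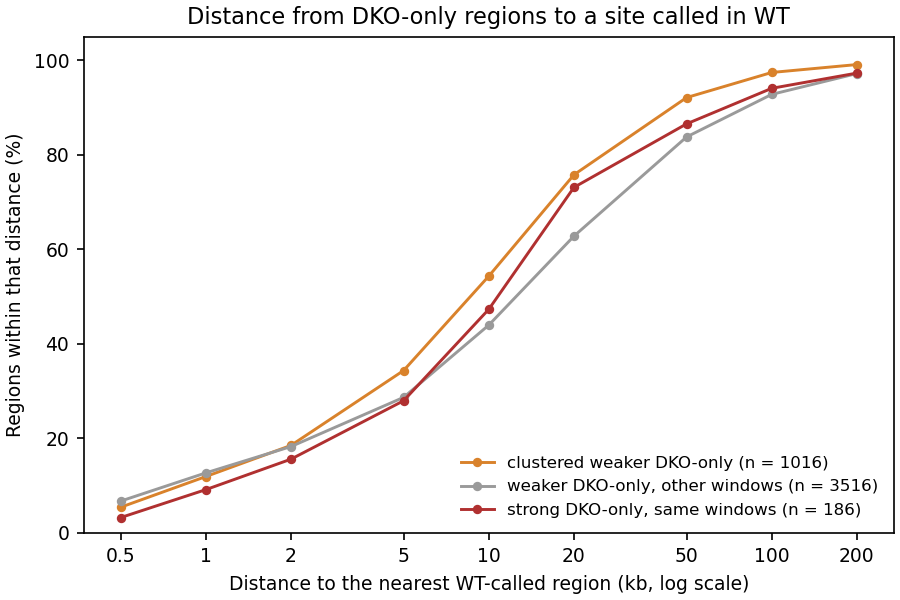
Share of regions (%) whose nearest WT-called region lies within a given distance (kb, log scale), for the clustered weaker DKO-only regions, the weaker DKO-only regions of other windows and the strong DKO-only regions of the same windows. The curves of both weaker classes meet at 1 to 2 kb and separate further out, at 54.3% and 44.0% by 10 kb.

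Some members were remote from any WT call. The most remote were 2 sites on chromosome 6 inside 1 window. The site at 81926099 to 81926208 had folds of 13.1 and 7.25, in DKO replicate order, and lay 676 kb from the nearest region with a WT call. The site at 81937122 to 81937256 had 6.73 and 7.59 and lay 665 kb away. On chromosome 14, 54179937 to 54180151 and 54165146 to 54165296 had 11.8 and 7.92, and 9.38 and 5.02, and lay 425 and 411 kb away. Their window, 54100001 to 54200000, also held a strong DKO-only site with a lower fold of 26.1 and had no WT call. Elsewhere on chromosome 14, 45290749 to 45290942 had 6.47 and 8.002 at 404 kb. These few came in pairs or beside strong sites, whereas the bulk of members was interspersed with WT-called regions.

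In fold the clustered members resembled weaker DKO-only regions elsewhere. The medians in DKO replicates 1 and 2 were 7.26 and 5.65 for members and 7.63 and 5.68 for the others. The solved local background was higher at members, at 2.15 and 1.74 fragments against 1.70 and 1.45, and the pileups were 22 and 15 against 21 and 14. The medians thus lay close in fold and pileup and further apart in local background. Fold and background come from the peaks that chose the regions, so these are descriptions, with no test.

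Every autosome held members, from 76 on chromosome 15 to 21 on chromosome 18. On chromosome 15 the members were 30.5% of 249 DKO-only regions, against 18.7% over all autosomes, and the lowest share was 13.9%, on chromosome 6. The share of all regions that were DKO-only was 15.4% on chromosome 15 and between 12.7 and 15.9% on every autosome, so the number of DKO-only regions on chromosome 15 was within the range of the other chromosomes. Between 60 and 80 Mb of chromosome 15, 37 of 86 DKO-only regions were members (43.0%), against 17 of 74 (23.0%) between 80 and 100 Mb. The 23 windows of chromosome 15 ran from 9400001 to 102000000, and 13 of them lay between 73500001 and 80600000. RefSeq places the targeted genes, Tcf7 (which encodes Tcf1) and Lef1, on chromosomes 11 and 3, where members were 15.98% and 22.3% of the DKO-only regions. The chromosomes were compared after their values were seen, with no test.

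**Figure D5:**
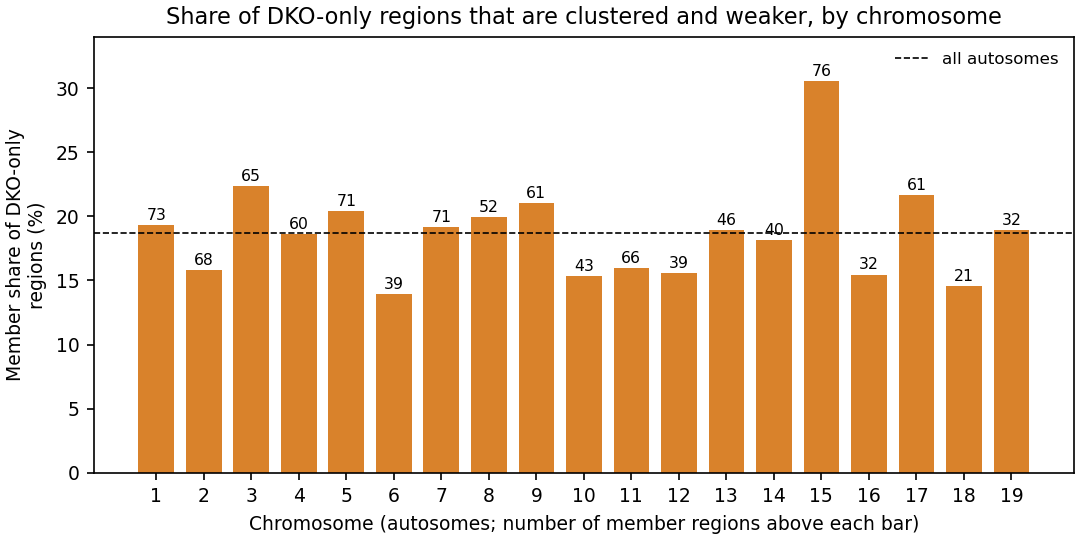
Share of the DKO-only regions of each autosome that were clustered weaker regions (%), with their number above each bar and the share over all autosomes, 18.7%, as a dashed line. Chromosome 15 is the highest bar at 30.5% and chromosome 6 the lowest at 13.9%.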

How the data were processed

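Peak lists of 4 DNase-seq libraries from mouse CD8+ T cells were analysed, 2 WT and 2 DKO, grouped by sample title. The authors deposited 1 list per library, so peaks were called per library. The submitters' processing notes name FastQC, Bowtie2 2.2.5, MACS2 2.1.1 and build mm9. The treatment of duplicates, any control library and the caller's settings were not given there. The authors deposited for each peak a fold enrichment, the −log10 p, the −log10 q and a score (the −log10 q times 10, cut to a whole number). The fold is a ratio of pileup to local background, with 1 added to each. Folds are the authors' own and are used within a list. Read depth is not given.

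Autosomal peaks overlapping by at least 1 bp were merged, and the maximum fold per library was taken. Positions count from 1 in mm9. Pileup and background were solved from fold and p. The merging, the choice of members and windows, and the solving of pileups were tested on simulated data. The simulated backgrounds were lower than those of some members, and the other steps were not tested in this way. The windows named are the 10 with the most members, ties broken by more DKO-only regions, then by the larger sum of lower folds. The regions named are those at the limits of the fold range, and others chosen after their values were seen. Library values were compared with an exact two-sided permutation test. The regions, lists and tests were chosen with earlier results of these data known. Gene neighbourhoods, promoters, markers and motifs need an mm9 annotation or genome, which was not used here. The alternatives were other fold limits, windows, grids, merging rules, q minimums, list lengths and left-out libraries. Python 3.11.15, numpy 2.4.6, pandas 2.3.3 and scipy 1.17.1 were used.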

Additional observations from a re-analysis of the deposited data

Results flagged for a closer look

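Peaks on chromosome Y numbered 55 and 57 in DKO replicates 1 and 2, against 0 in each WT list. They lie outside the autosomal regions described here and were above the WT level. The labels give no sex, and the part of this difference in the autosomal calls cannot be told apart from genotype.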

How the results depend on the processing

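The 1016 regions in 353 windows depended on the listing depth more than on any other setting run. With lists of equal length, 6 regions in 4 windows were left. The fold limit keeps members low in at least 1 DKO list, so the rule itself favours this loss. A fold limit of 6 gave 660 regions, windows of 50 kb gave 488 regions in 183 windows, and at least 4 DKO-only regions per window gave 372 in 102. Leaving out 1 library gave 1353 to 7077 regions and 470 to 2426 windows. The other settings (a limit of 10, a shifted grid, merging within 500 bp, overlap of 50%, a −log10 q of at least 5, and, added after seeing the data, joining within 1 kb and a pileup of at least 10) stayed within 1.5 times, from 767 regions when merging within 500 bp to 1146. Each of the 10 named windows kept a member under every planned setting but equal length, under which 1 did.

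The difference in percentile at shared sites inside the windows went from 16.04 to -1.83 points with lists of equal length (a setting added after seeing the data). Both DKO values then lay between the WT values. The set of shared sites changed along with the list length, and their parts were not told apart. The other settings keep the unequal lists and say nothing of the stability of the difference. They gave 10.4 to 20.6 points, and 0.65 (log2) on the fold itself. The replicate block, which pairs libraries of the same number, gave the same 16.04 points (exact p = 0.50, the smallest for 2 pairs). Deviations of same-numbered libraries had a correlation of -0.01 over 7949 shared regions. This gave no sign of a pairing but cannot exclude one, since a shift common to all regions leaves the correlation unchanged. The genotype difference in the drop inside the windows (1.35 points) ranged from -0.92 to 2.46 with 1 library left out and reversed to -0.92 without DKO replicate 1 and to -0.53 with lists of equal length. The settings on transcription starts and motifs were not run, for want of an mm9 genome here.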
